A study of Mus musculus with 6 samples.

Results

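Gene desert peaks are sites of open chromatin that overlap no protein-coding gene and lie over 100 kb from every protein-coding gene. They were found from the peak coordinates, outside the antigen receptor loci, against the RefSeq genes of GRCm38.p6. This gave 5809 of the 97124 peaks (5.98%), in 721 deserts, a desert being all such peaks between the same pair of flanking genes. ATAC-seq, which uses a transposase to tag accessible DNA for sequencing, was run on B-cells from the bone marrow of mice that the labels call PEtg. Cells were told apart by H2B-GFP, a fluorescent histone that daughter cells share out when they divide. H2B-GFP high cells are labelled quiescent (n = 3 samples) and H2B-GFP low cells proliferating (n = 3 samples), and both groups carry PEtg and H2B-GFP. The series title places the comparison in work on cell quiescence in pre-leukemic stem cells. Age, sex, the promoter that drives each transgene and whether samples came from separate mice are not stated in the labels, so a p-value here reflects sample-to-sample spread that may be technical.

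Gene deserts are long stretches with few or no protein-coding genes. Many of them flank genes of transcription factors and signalling proteins and hold distal enhancers, short sequences that bind transcription factors and act on a promoter far away through looping of the chromatin. Deserts beside Myc and beside genes of B-cell transcription factors are known for such enhancers in blood cells, and they also hold genes of long non-coding RNAs. The gene nearest to a desert peak is its position and not a measured target, so flanking genes are given here only as landmarks.

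Sequence for desert peaks was at hand where a peak lies over the promoter of a RefSeq long non-coding gene, from 250 bases before to 50 bases after its start. This held for 111 desert peaks, over 122 promoters of 107 genes. The 5 printed here lie under peaks whose accessibility differed between the groups, and stand for both directions. Gm12159 is in the desert beside Ebf1 and Gm2447 in the desert beside Foxo1, and both of their peaks rose in quiescent cells, as did the peak at Gm38838 in the desert between Lrrtm4 and Gcfc2. The call at Gm2447 (log2 fold change 0.90, limma adjusted p = 0.0459) ended with library totals (0.61, adjusted p = 0.0905) and held in 0 of the 6 fits that left out a sample. The peaks at Gm5122 (beside Uaca and Tle3) and Gm38542 (beside Fstl5 and Rapgef2) fell. Sequences are RefSeq, GRCm38.p6, 300 bases each, 5′ to 3′ on the strand of the non-coding gene, which is the minus strand for Gm12159, Gm38838 and Gm38542 and the plus strand for Gm2447 and Gm5122. Capitals mark matches to the motifs named after them.
Gm12159 promoter: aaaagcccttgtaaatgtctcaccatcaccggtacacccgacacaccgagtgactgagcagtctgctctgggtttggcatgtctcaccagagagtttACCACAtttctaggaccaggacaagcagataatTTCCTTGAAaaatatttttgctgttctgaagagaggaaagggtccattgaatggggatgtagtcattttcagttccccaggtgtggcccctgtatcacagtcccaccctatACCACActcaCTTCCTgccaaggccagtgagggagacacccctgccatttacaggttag
Gm2447 promoter: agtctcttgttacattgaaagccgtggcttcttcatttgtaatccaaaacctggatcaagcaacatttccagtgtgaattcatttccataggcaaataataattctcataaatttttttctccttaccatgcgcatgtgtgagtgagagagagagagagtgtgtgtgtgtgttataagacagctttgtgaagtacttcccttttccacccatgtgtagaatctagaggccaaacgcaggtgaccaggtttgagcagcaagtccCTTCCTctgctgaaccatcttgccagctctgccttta
Gm38838 promoter: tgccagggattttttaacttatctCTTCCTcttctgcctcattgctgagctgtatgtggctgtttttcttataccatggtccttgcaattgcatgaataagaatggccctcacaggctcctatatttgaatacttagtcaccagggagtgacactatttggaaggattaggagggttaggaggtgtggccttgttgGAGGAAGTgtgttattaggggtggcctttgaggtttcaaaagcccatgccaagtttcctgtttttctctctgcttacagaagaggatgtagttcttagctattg
Gm5122 promoter: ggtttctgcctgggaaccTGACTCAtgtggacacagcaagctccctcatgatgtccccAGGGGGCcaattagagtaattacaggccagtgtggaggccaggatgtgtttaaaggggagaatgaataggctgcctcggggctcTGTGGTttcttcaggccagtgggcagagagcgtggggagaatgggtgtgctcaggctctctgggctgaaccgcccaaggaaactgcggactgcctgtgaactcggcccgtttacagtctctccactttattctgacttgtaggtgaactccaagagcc
Gm38542 promoter: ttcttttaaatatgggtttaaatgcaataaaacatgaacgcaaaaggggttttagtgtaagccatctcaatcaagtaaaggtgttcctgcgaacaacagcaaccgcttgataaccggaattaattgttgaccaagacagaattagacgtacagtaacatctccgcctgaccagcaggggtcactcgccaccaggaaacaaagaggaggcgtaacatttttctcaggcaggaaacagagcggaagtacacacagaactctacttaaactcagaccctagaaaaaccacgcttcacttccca
Matches were searched on both strands for ETS (AGGAAG), PU.1 (GAGGAAGT, which contains the ETS letters), RUNX (TGTGGT), EBF, E-box (CAGCTG), AP-1 (TGANTCA), FOX (TGTTTAC), IRF, STAT (TTCCNNGAA) and CTCF (AGGGGGC). The Gm12159 promoter held 1 ETS, 2 RUNX and 1 STAT match. The Gm38838 promoter held 2 ETS matches, 1 of them inside a PU.1 match, and Gm2447 held 1 ETS match. The Gm5122 promoter held 1 AP-1, 1 CTCF and 1 RUNX match, and Gm38542 held none of these letters. Of all 11588 RefSeq non-coding promoters, 37.1% held the ETS letters, 3.33% the PU.1 letters, 20% the RUNX letters, 9.31% the AP-1 letters, 6.39% the CTCF letters and 5.1% the STAT letters. Of the 111 promoters at desert peaks, 1 for each peak, 50.5% held the ETS letters, 10.8% the PU.1 letters, 24.3% the RUNX letters, 13.5% the AP-1 letters, 4.5% the CTCF letters and 3.6% the STAT letters. For E-box, FOX, IRF and EBF the shares were 18.9%, 5.41%, 2.7% and 0% of the 111. Over all 11588 they were 17.7%, 4.83%, 3.61% and 0.803%. The 111 were taken for lying under a peak and the 11588 were not, so the sets are unlike. A match is a description of the letters and not evidence of binding.

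The deposited value is a scaled signal for each peak and sample, on a shared list of peaks with mm10 coordinates. Low values lay on regular steps from which the reads behind them were estimated: 28138066, 14016556 and 18586913 for quiescent samples 1, 2 and 3, against 8053178, 31686652 and 48927086 for proliferating samples 1, 2 and 3. The median desert peak held 69, 32 and 43 reads in the quiescent samples, against 27, 81 and 128 reads in the proliferating samples. By these reads the median desert peak is least precise in proliferating sample 1. Desert peaks with no signal numbered 81, 226 and 118 in quiescent samples 1, 2 and 3, against 14, 33 and 1 in proliferating samples 1, 2 and 3. The effect of this imbalance on weak peaks was not tested. All 10 B-cell marker genes read had a peak within 1 kb of a gene end, with a summed signal of 21522 to 23717 in quiescent samples and 22980 to 27977 in proliferating samples. Among 8 myeloid markers, 3 had such a peak (1242 to 1422 in quiescent, 749 to 914 in proliferating samples), with none at Csf3r, Mpo, Elane, Ly6g or Cebpe. Among 8 T and NK markers, 4 had one (2366 to 2793 in quiescent, 1919 to 2106 in proliferating samples), with none at Cd3e, Cd3g, Ncr1 or Zap70. Among 7 erythroid and megakaryocyte markers, 2 had one (937 to 1153 in quiescent, 962 to 1211 in proliferating samples), with none at Klf1, Epor, Gata1, Vwf or Itga2b. The myeloid and the T and NK signal was higher in every quiescent sample than in any proliferating sample, and its part in the desert results was not tested. Fewer cells of a type and less open chromatin per cell cannot be told apart in bulk samples.

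The median desert peak was 468 bp wide with a signal of 56.7, beside 513 bp and 64.5 between genes nearer by, 506 bp and 60.8 in gene bodies, and 912 bp and 123 within 1 kb of a gene end. They held 6.25%, 5.61% and 5.63% of the deposited signal in quiescent samples 1, 2 and 3, against 6.29%, 5.36% and 5.24% in proliferating samples 1, 2 and 3. The groups overlapped, with means of 5.83% ± 0.364 in quiescent and 5.63% ± 0.575 in proliferating samples (SD, n = 3 each), and the highest value of each group was its sample 1. The median desert peak deviated from its mean over the 6 samples by 0.185, -0.012 and 0.006 on the log2 scale in quiescent samples 1, 2 and 3, and by 0.198, -0.116 and -0.161 in proliferating samples 1, 2 and 3. Within the pairs of equal number, the quiescent sample minus the proliferating sample was -0.013 for number 1, 0.104 for number 2 and 0.167 for number 3. Spread within a group was wider at desert peaks, with a median SD of 0.367 (quiescent) and 0.374 (proliferating) on the log2 scale, than at the other peaks, with 0.291 and 0.287.

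**Figure D1:**
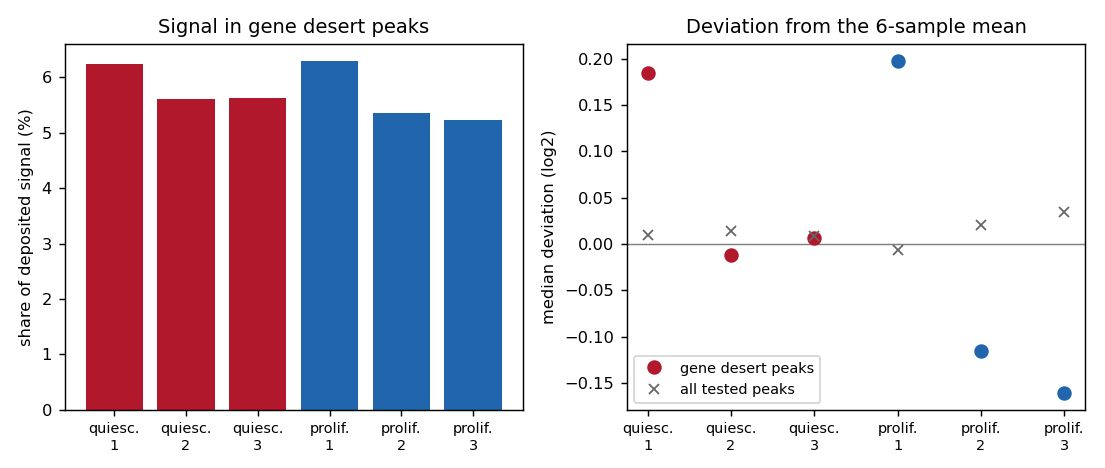
Left, share of the deposited signal (%) that lies in the 5809 gene desert peaks, 1 bar per sample. Right, median deviation of desert peaks (dots) and of all tested peaks (crosses) from the mean over the 6 samples, in log2 units: both samples numbered 1 lie near 0.19, and quiescent samples 2 and 3 lie above proliferating samples 2 and 3.

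Of the 5809 desert peaks, 4938 passed the filter on low values and were tested, and 439 of these (8.89%) differed between quiescent and proliferating cells at a limma adjusted p under 0.05 (Benjamini-Hochberg over all tested peaks). The share over all 87411 tested peaks was 6.72%. Higher accessibility in quiescent cells was found at 294 desert peaks (5.95% of those tested, beside 4.01% over all peaks) and lower accessibility at 145 (2.94%, beside 2.72%). The 294 had log2 fold changes of 0.41 to 3.46 with a median of 1.35, the 145 had -3.21 to -0.37 with a median of -1.25, and 327 of the 439 changed by at least 1 log2 unit. Fitted with the replicate number as a block, 1280 desert peaks passed (25.9% of those tested, beside 18.3% over all peaks), and these included all 439. With the block, 795 were higher (16.1%, beside 10.2% over all peaks) and 485 lower (9.82%, beside 8.14%). The calls rest on few samples: leaving out quiescent sample 3 left 0, quiescent sample 2 left 17, proliferating sample 2 left 74 and proliferating sample 3 left 97, while leaving out proliferating sample 1 gave 704 and quiescent sample 1 gave 478. With 0 calls, 1196 of the 4938 desert peaks had an unadjusted limma p under 0.05, beside 16512 of all 87411 tested peaks. Limma-voom on the estimated reads, added after seeing the data, called 364 desert peaks without the same sample (7.37%, beside 5.42% over all peaks).

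The balance of the directions depended on the scaling. As deposited, 67.0% of the called desert peaks were higher in quiescent cells, beside 59.6% of all called peaks. With the estimated reads scaled to library totals, the median of all tested peaks moved to -0.256 from -0.009, and 46.9% of 853 called desert peaks were higher, beside 34.0% of all called peaks. With median-of-ratios scaling, 78.0% of 889 called desert peaks were higher, beside 71.5% of all. The median log2 fold change of the tested desert peaks was 0.079 as deposited, -0.081 with library totals and 0.189 with median of ratios, which lay 0.088, 0.174 and 0.175 above the median of all tested peaks under the same scaling. No test was made of these medians. As deposited, the 0.088 was 0.023, 0.132 and 0.129 without quiescent samples 1, 2 and 3, and 0.223, 0.028 and 0.007 without proliferating samples 1, 2 and 3. The desert median itself lay between 0.012 and 0.186 in these 6 fits. The 3 quiescent and the 3 proliferating values did not overlap at 929 desert peaks that were higher in quiescent cells and 624 that were lower, which is 18.8% and 12.6% of those tested, beside 15.4% and 14.9% over all peaks. These included all 439 called desert peaks, so a lack of overlap at a called peak is no added support for its call.

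By position, 7.65% of the 26397 tested peaks between genes but nearer than 100 kb were called, 7.33% of the 39606 in gene bodies and 2.79% of the 15816 within 1 kb of a gene end. The median log2 fold changes were 0.079 in deserts, 0.010 between genes nearer by, 0.019 in gene bodies and -0.079 at gene ends. Among desert peaks, the called share was 8.98% at 100 to 150 kb from the nearest gene, 8.77% at 200 to 300 kb, 10.2% at 500 to 1000 kb and 7.69% beyond that. Of the 30 called peaks at 500 to 1000 kb, 25 were higher and 5 lower in quiescent cells, and the median log2 fold change of the 294 tested peaks there was 0.201. The median was 0.097 at 100 to 150 kb, 0.012 at 150 to 200 kb, 0.041 at 200 to 300 kb, 0.105 at 300 to 500 kb and -0.024 beyond 1000 kb. The called share was larger in stronger peaks, with 3.16% at a mean signal of 18.5 to 37.6 and 14.1% at 210 or more. The 2 members nearest to the distance threshold lay 100 kb from Kitl and Ccnd2 with log2 fold changes of -1.45 and 0.72, and the nearest peaks outside it lay beside Ets2, which was too weak to be tested, and Ralgapa2 with -1.0. None of these was called.

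**Figure D2:**
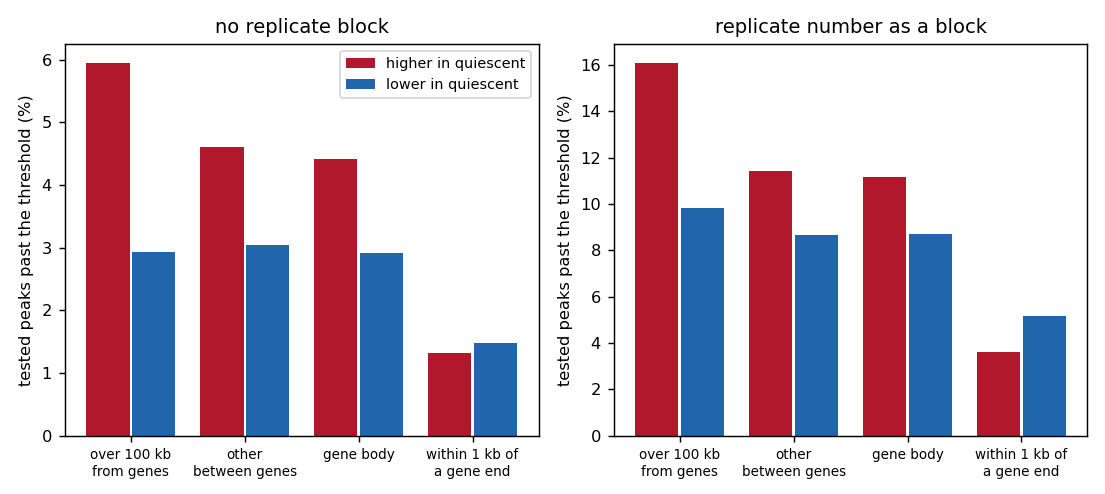
Share of tested peaks (%) past the threshold, higher or lower in quiescent cells, by position relative to protein-coding genes, without the replicate block (left) and with it (right). Without the block, 5.95% of desert peaks were higher and 2.94% lower, and at gene ends 1.32% were higher and 1.47% lower.

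The 8 largest rises among desert peaks of above-median signal lay in 8 deserts. The largest was at chr12:92375566-92376302, between Sel1l, an adaptor of protein degradation at the endoplasmic reticulum, and Gm40892, 507 kb from the nearer gene. Its signal was 249, 252 and 267 in quiescent samples 1, 2 and 3, against 24.1, 17.1 and 27 in proliferating samples 1, 2 and 3. The quiescent values were tightly grouped and far above all proliferating values, with a log2 fold change of 3.46 ± 0.25 (SE, limma adjusted p = 0.00436). A peak 454 kb from Tbl1xr1, which encodes a subunit of corepressor complexes, at chr3:21621441-21622452, had 204, 463 and 322 in quiescent samples, against 77.8, 46.3 and 52.9 in proliferating samples. The quiescent values varied more here (2.42 ± 0.32, adjusted p = 0.00852). A peak 105 kb from Cdc5l, a splicing factor, at chr17:45285383-45286660, had 428, 483 and 476 in quiescent samples, against 91.5, 96.2 and 77.6 in proliferating samples (2.38 ± 0.18, adjusted p = 0.00436). A peak at chr17:4496250-4496776, 498 kb from Arid1b, a subunit of the BAF chromatin remodeller, had 121, 142 and 126 in quiescent samples, against 15.8, 23.5 and 41.9 in proliferating samples (2.32 ± 0.35, adjusted p = 0.011). The proliferating values were uneven here. The peak at chr2:48287621-48288403, between Zeb2, a transcriptional repressor, and Acvr2a, an activin receptor, had 543, 553 and 529 in quiescent samples, against 245, 44.8 and 132 in proliferating samples. The proliferating values differed several-fold among themselves, and its log2 fold change of 2.24 ± 0.49 (adjusted p = 0.0319) ranged from 1.58 to 2.80 as samples were left out. The other 3 lay beside Slco3a1 (2.97), Has2 and Sntb1 (2.49), and Frg1 and Triml1 (2.37).

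Of the 8 largest falls, 7 are described here, in 6 deserts. A pair of peaks lay on either side of Pik3r1, the regulatory subunit of PI3-kinase. On the side of Cd180, a B-cell surface receptor, the peak at chr13:101928274-101928730 had 23, 17.3 and 35.2 in quiescent samples, against 120, 177 and 139 in proliferating samples (log2 fold change -2.52 ± 0.31, limma adjusted p = 0.00773). On the side of Slc30a5, the peak at chr13:101569039-101570009 had 229, 169 and 125 in quiescent samples, against 926, 544 and 397 in proliferating samples (-1.78 ± 0.32, adjusted p = 0.0179). In both, as at every called desert peak that fell, each quiescent value lay below each proliferating value. In the peak beside Slc30a5 sample 1 was the highest of each group. The desert between Cetn3 and Mef2c, a transcription factor of B-cell development, held a pair of falling peaks, nearer to Cetn3 than to Mef2c, which was 1431 kb away or more. The stronger, at chr13:82072250-82073315, had 167, 90.7 and 123 in quiescent samples, against 455, 556 and 464 in proliferating samples (-1.99 ± 0.23, adjusted p = 0.00667). The other, at chr13:82056467-82056988, fell by 2.08. A peak 120 kb from Lpp and 284 kb from Bcl6, a transcriptional repressor, at chr16:24272748-24273454, had 56.9, 34.2 and 47 in quiescent samples, against 249, 157 and 157 in proliferating samples (-2.0 ± 0.28, adjusted p = 0.00958). The peak 158 kb from Btg1, an antiproliferative gene, at chr10:96458492-96458969, had 113, 23.2 and 55.2 in quiescent samples, against 319, 177 and 175 in proliferating samples. Its groups lay close, and its log2 fold change of -2.01 ± 0.50 (adjusted p = 0.0483) ranged from -2.55 to -1.43 as samples were left out. A peak 126 kb from Klf4, a transcription factor, at chr4:55658203-55659392, had the smallest SE of these falls, with 244, 226 and 206 in quiescent samples, against 828, 890 and 831 in proliferating samples (-1.91 ± 0.14, adjusted p = 0.00436).

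**Figure D3:**
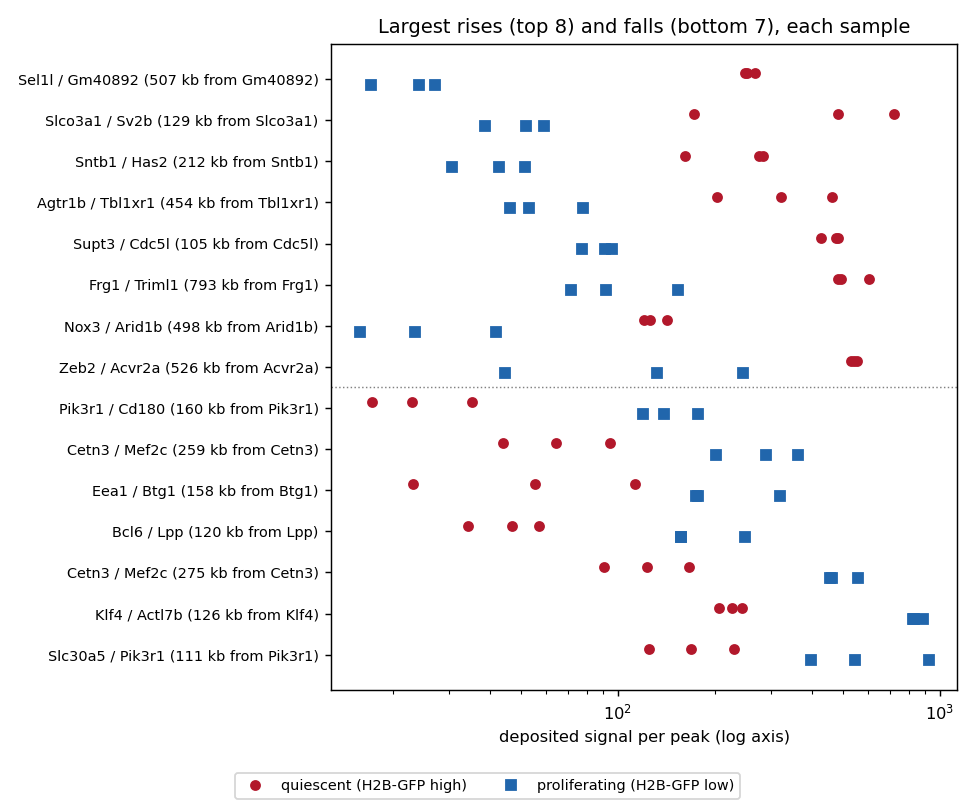
Deposited signal per peak in each sample (log axis) at the desert peaks with the 8 largest rises (top) and 7 of the 8 largest falls (bottom), quiescent samples as circles and proliferating samples as squares. Rows name the flanking genes and the distance to the nearer one, and the groups are apart in all 15 rows, since the peaks were chosen among the called ones.

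None of the 6 strongest desert peaks passed the test as deposited. The highest mean signal was at chr2:98666145-98667420, between Lrrc4c and Iftap, a locus known as background for satellite repeats that collect reads in many assays. It had 7460, 6751 and 5273 in quiescent samples, against 10898, 6554 and 14821 in proliferating samples. The groups overlapped, and its log2 fold change of -0.67 ± 0.26 gave a limma adjusted p of 0.152, or 0.0397 with the replicate block. Without it the desert share of the signal was 6.22%, 5.58% and 5.61% in quiescent samples and 6.24%, 5.32% and 5.17% in proliferating samples. The next 5 lay beside Tgfbr2 (chr9:116337370-116339161), between Lpp and Tprg (chr16:25175157-25179339), beside Fmo9 (chr1:166818445-166820776), beside Map3k1 (chr13:111999588-112004920) and beside Cxcr4 (chr1:128704239-128706016), the receptor that holds B-cell precursors in the marrow. Their log2 fold changes were 0.03, 0.05, 0.09, -0.12 and -0.20. With median-of-ratios scaling the first 3 passed, at 0.47, 0.51 and 0.56, and with library totals only the peak beside Fmo9 did, at 0.31 (adjusted p = 0.0342). Per kb of width, the peak beside Tgfbr2 averaged a signal of 3227 and the wide peak beside Map3k1 averaged 946. Of the 100 strongest desert peaks, 16 were called (16%, beside 8.89% over tested desert peaks and 6.72% over all peaks), 6 higher and 10 lower in quiescent cells. They included the peak at chr14:15768581-15770888 between Lrrc3b and Oxsm, singled out after its values were seen. It had 5325, 4273 and 4156 in quiescent samples, against 3480, 1931 and 2267 in proliferating samples (log2 fold change 0.88 ± 0.20, limma adjusted p = 0.0366), and it was also called with both read scalings, and in 1 of the 6 fits that left out a sample.

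Desert peaks were spread unevenly over the deserts, and the length of a desert was not taken into account. Of the 721 deserts, 172 held 1 peak, and 185 held 10 or more and together 4145 peaks. Called peaks lay in 214 deserts, and 56 deserts held 3 or more: in 22 all of these were higher in quiescent cells, in 5 all were lower and in 29 both directions occurred. Peaks of the same desert share a locus and are not replicates of each other. The counts by desert below stand beside called shares of 6.72% over all peaks and 8.89% over desert peaks. With the block these shares were 18.3% and 25.9%. Deserts named for having the most called peaks have high counts by that choice.

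**Figure D4:**
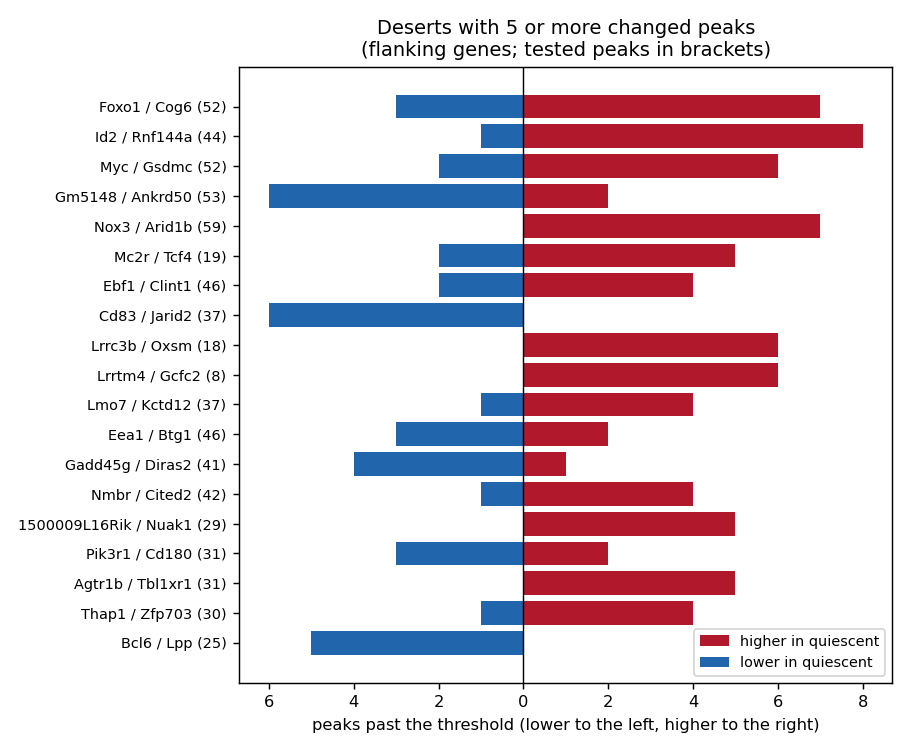
Number of called peaks that were lower (left of 0) and higher (right of 0) in quiescent cells in the 19 deserts with 5 or more called peaks, with the flanking genes and the number of tested peaks in brackets. The desert beside Nox3 and Arid1b has 7 higher and 0 lower, and the desert beside Cd83 has 0 higher and 6 lower.

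The desert between Foxo1, a transcription factor of early B-cell development, and Cog6 had the most called peaks, 7 higher and 3 lower among 52 tested (10 higher and 6 lower with the block). Its strongest peak, chr3:52632558-52635163, lay 282 kb from Foxo1 and had 4195, 3769 and 3821 in quiescent samples, against 5460, 5608 and 5570 in proliferating samples. Both groups were tight and apart (log2 fold change -0.50 ± 0.08, limma adjusted p = 0.0143), and the value was -0.29 with library totals and -0.04 with median of ratios, which ends the call. A second falling peak 217 kb from Foxo1 had 1199, 1395 and 1482 in quiescent samples, against 1720, 3271 and 3117 in proliferating samples (-0.94 ± 0.23, adjusted p = 0.0423). Nearer to Foxo1, at 129 kb, the peak at chr3:52478908-52479910 went the other way, with 635, 682 and 710 in quiescent samples, against 235, 254 and 307 in proliferating samples (1.35 ± 0.16, adjusted p = 0.00657). The 3 called peaks closest to Foxo1, at 102, 126 and 129 kb, were all higher in quiescent cells, with mean signals of 62, 154 and 470. Stronger peaks in the same stretch, at 107.8 kb (3099) and 116.0 kb (2821), were not called, with log2 fold changes of -0.13 and -0.22. The call at 102 kb ended with library totals (0.94, limma-voom adjusted p = 0.0625). This order was noted after the values were seen and was not tested.

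The desert beside Ebf1, which commits progenitors to the B lineage, had 4 higher and 2 lower of 46 tested. With the block 5 were higher and 3 lower, a share below the 18.3% over all peaks. The 4 higher peaks lay 108 to 259 kb from Ebf1 and the 2 lower peaks 433 and 446 kb from it. The call at 165 kb ended with library totals (0.79, limma-voom adjusted p = 0.108) and held in 0 of the 6 fits that left out a sample. With the block the strongest peak of the desert, at 314.7 kb (signal 4201), passed as lower (-0.25). A peak at 317.0 kb passed with the block as higher (1.04), which departs from that order. The peak at chr11:45116324-45117437, which covers the Gm12159 promoter shown above, had 567, 501 and 459 in quiescent samples, against 348, 224 and 243 in proliferating samples (log2 fold change 0.92 ± 0.20, limma adjusted p = 0.0297). The peak at chr11:45441258-45442513 had 483, 480 and 437 in quiescent samples, against 1064, 1985 and 1492 in proliferating samples (-1.65 ± 0.21, adjusted p = 0.00773). Values at both peaks did not overlap between the groups, as at every called desert peak. This order along the desert was noted after the values were seen and was not tested.

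Beside Id2, an inhibitor of E-protein transcription factors, 8 of 44 tested peaks were higher and 1 was lower in quiescent cells (13 and 3 with the block), and the median log2 fold change was 0.396. The strongest called peak, chr12:25438012-25440093, had 2260, 2368 and 2312 in quiescent samples, against 1863, 1659 and 1624 in proliferating samples (0.43 ± 0.10, limma adjusted p = 0.0399). The other higher peaks were weaker and changed more, by 1.16 to 1.88. Of these, the peaks 110, 125, 335 and 795 kb from Id2 were not called with library totals (limma-voom adjusted p = 0.135, 0.107, 0.0519 and 0.0569). With median of ratios, only the peak at 110 kb among them was not called (limma-voom adjusted p = 0.0728). Beside Myc, a driver of cell growth and division, 6 of 52 tested peaks were higher and 2 lower (11 and 5 with the block). All 8 called peaks lay 632 kb or more from Myc. Those 1338 kb or more from it were nearer to Gsdmc, the other flank, at 108 to 448 kb. The calls at 707 and 812 kb ended with library totals (limma-voom adjusted p = 0.0601 and 0.0895). With the block, peaks at 178.3 and 360.4 kb from Myc also passed. The strongest called peak, chr15:62823635-62825287, lay 833 kb from Myc. It had 2406, 2062 and 2094 in quiescent samples, against 1373, 902 and 889 in proliferating samples (1.08 ± 0.17, limma adjusted p = 0.0132). The quiescent values were the higher in each numbered pair, and sample 1 was the highest of each group.

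The desert between Nox3 and Arid1b had 7 higher and 0 lower of 59 tested peaks (13 and 1 with the block). Its share with the block was below the 25.9% over desert peaks. At its strongest called peak, chr17:4767546-4769060, the signal was 2726, 2745 and 3407 in quiescent samples, against 2044, 1606 and 1724 in proliferating samples (log2 fold change 0.72 ± 0.13, limma adjusted p = 0.0187). The desert between Gm5148 and Ankrd50 went mostly the other way, with 2 higher and 6 lower of 53 (6 and 13 with the block). Its strongest called peak, chr3:38142760-38144678, had 1445, 1701 and 1731 in quiescent samples, against 2171, 2260 and 2204 in proliferating samples (-0.45 ± 0.11, adjusted p = 0.0439). That call ended with both read scalings, at -0.32 (adjusted p = 0.0581) with library totals and -0.06 with median of ratios.

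Some smaller deserts changed in 1 direction and were chosen for description after their values were seen. In the desert between Kit, the receptor for stem cell factor, and Kdr, a receptor for vascular endothelial growth factor, 4 of 9 tested peaks were higher and 0 lower (8 and 0 with the block). All 9 log2 fold changes were above 0, from 0.14 to 1.42, with a median of 1.192. The strongest called peak there, chr5:75791052-75792918, had 1285, 1277 and 1342 in quiescent samples, against 506, 428 and 529 in proliferating samples (1.42 ± 0.13, limma adjusted p = 0.00505). Both groups were tight, and the value stayed between 1.33 and 1.48 as samples were left out. In the desert between Lrrtm4 and Gcfc2, 6 of 8 tested peaks were higher and all 8 were above 0, with a median of 1.662. The peak there that overlaps 250 bases of the Gm38838 promoter had 111, 109 and 103 in quiescent samples, against 36.6, 26.3 and 33.5 in proliferating samples (1.72 ± 0.25, adjusted p = 0.0098).

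In the desert between Cd83, a B-cell activation marker, and Jarid2, a partner of Polycomb repressive complex, 6 of 37 tested peaks were lower and 0 higher (12 and 0 with the block), with a median of -0.461. Its strongest called peak, chr13:44060911-44061718, had 374, 293 and 305 in quiescent samples, against 531, 940 and 713 in proliferating samples (log2 fold change -1.13 ± 0.22, limma adjusted p = 0.0209). Between Bcl6 and Lpp, 5 of 25 were lower and 0 higher (7 lower and 1 higher with the block), with a median of -0.384. Chromosomes 13 and 5 were singled out among all chromosomes after their values were seen. Chromosome 13 holds the deserts beside Cd83, Pik3r1 and Cetn3. Of its 420 tested desert peaks, 11 were higher and 29 lower, in 13 deserts for the lower ones. Elsewhere on chromosome 13, outside deserts, 165 peaks were higher and 125 lower of 3621 tested. On chromosome 5, 17 of 128 tested desert peaks were higher and 1 was lower, beside 218 higher and 165 lower of 5239 tested outside deserts.

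**Figure D5:**
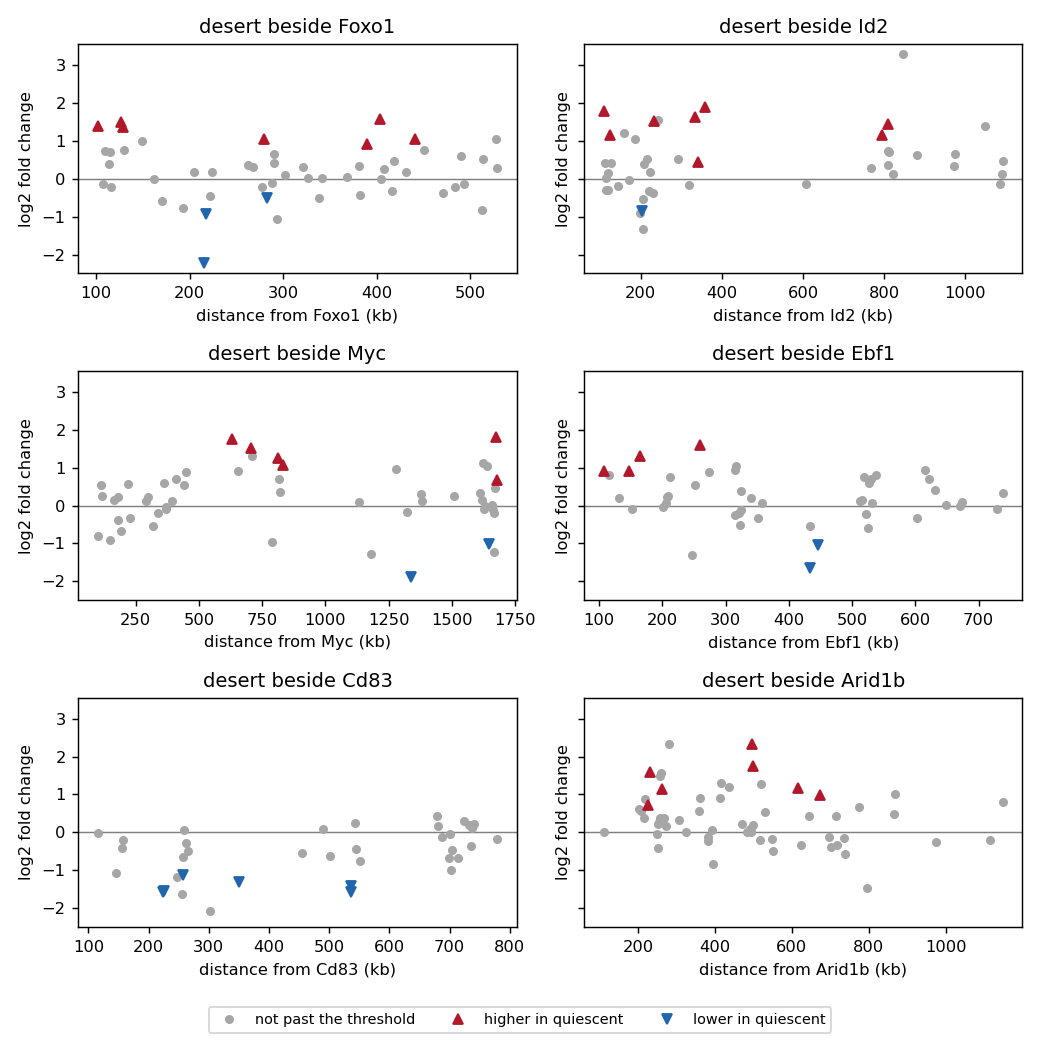
Log2 fold change (quiescent over proliferating) of each tested peak against its distance (kb) from the named gene in 6 deserts, with called peaks as triangles and the others as grey dots. Beside Foxo1 and Ebf1 the called peaks nearest to the gene point up, beside Cd83 all 6 called peaks point down, and beside Arid1b all 7 point up.

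Flanking genes were also read by lists of genes. Of 39 B-lineage factors, 17 flank a desert, with 530 tested desert peaks, of which 39 were higher and 25 lower (12.1% called, beside 6.72% over all peaks and 8.89% over desert peaks). The median log2 fold change was 0.072, beside 0.079 over tested desert peaks. Runx1, a factor of blood stem cells and early B-cells, flanks a desert with 80 peaks, a number shared with the desert between Rps24 and Zmiz1 and exceeded by none. Of its 72 tested peaks, 4 were higher and 0 lower, a called share below the 6.72% over all peaks. With the block 14 were higher and 5 lower, near the 25.9% called over desert peaks. Beside Tcf4, an E protein, 6 of 22 tested peaks were higher and 2 lower, and beside Mef2c 1 was higher and 3 were lower of 40. Beside Sox4, needed for early B-cells, 2 of 56 were higher and 2 lower.

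Of 18 stem and progenitor genes, 5 flank a desert, with 8 of 52 tested peaks higher and 0 lower (17 and 6 with the block). The called share was 15.4%, beside 6.72% over all peaks and 8.89% over desert peaks. These 8 lay beside Kit (4), Eya1 (2) and Mycn (2). Of 12 growth and cell cycle genes, 5 flank a desert, with 10 higher and 5 lower of 127 (11.8% called). Of these, Myc had 7 and 2 over both of its sides. Of 16 cytokine and adhesion genes, 8 flank a desert, with 8 higher and 3 lower of 111 (9.91% called, near the 8.89% over desert peaks). The strongest called peak of that list lay 148 kb from Tgfbr2, a receptor of TGF-beta, with 1409, 1342 and 1493 in quiescent samples, against 1906, 1922 and 2031 in proliferating samples (log2 fold change -0.47 ± 0.10, limma adjusted p = 0.0327). Its groups were tight and apart, and its value was -0.34 with library totals and -0.09 with median of ratios, which ends the call.

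Of 15 AP-1 and early response genes, 4 flank a desert, with 5 higher and 0 lower of 44 tested peaks (12 and 1 with the block). The called share was 11.4%, beside 6.72% over all peaks and 8.89% over desert peaks. Of these 5, 4 lay beside Jun, a subunit of AP-1, and 1 beside Maf. The strongest, 103 kb from Jun at chr4:95155687-95157395, had 1014, 1086 and 1384 in quiescent samples, against 413, 625 and 686 in proliferating samples (log2 fold change 1.03 ± 0.21, limma adjusted p = 0.0243). Every quiescent value lay above every proliferating value, as at all called desert peaks that rose. Of 30 neural and developmental genes, 20 flank a desert, with 6 higher and 4 lower of 140 tested peaks (7.14% called). The strongest called peak there, 611 kb from Tbx3 and 292 kb from Med13l, had 1866, 1731 and 1906 in quiescent samples, against 1430, 1364 and 1352 in proliferating samples (0.41 ± 0.10, adjusted p = 0.049).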

How the data were processed

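ATAC-seq signal was compared between quiescent (n = 3) and proliferating (n = 3) samples. Per the submitters' processing notes, Bowtie2, SAMtools, MACS2 and mm10 were used. Their versions, any shift for the transposase and the way of counting are not stated in the labels. The authors deposited 1 scaled signal value per peak and sample, on 1 peak list. The steps of low values gave whole reads (97.7% to 100% of values of 1 to 1000 reads lay within 0.1 of a whole number), from which the depths were estimated. Distances are to 21900 protein-coding genes of the RefSeq table.

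Values were tested with limma 3.58.1 (R 4.3.3, intensity trend, log2(signal + 1)) over the 87411 peaks with a mean above the lowest 10%. Fold changes are quiescent over proliferating and understate weak peaks. Peaks were called at a Benjamini-Hochberg adjusted p below 0.05. On data simulated for this comparison over the 87411 peaks, with 200 of them changed, 8% of peaks changed by 1 log2 unit and 37% of peaks changed by 2 were recovered. In the data 5876 peaks were called, so the adjusted threshold differed and these shares do not give the recovery in the data. Samples with the same number in their titles deviated together (correlations of 0.43, 0.285 and 0.21). These values do not establish a pairing, and the replicate block is given as an alternative fit. Quiescent sample 2 with proliferating sample 3 (0.22) and quiescent sample 3 with proliferating sample 2 (0.146) also correlated, and samples 1 stood apart from samples 2 and 3. Python 3.11.15, numpy 2.4.6, pandas 2.3.3 and matplotlib 3.10.9 were used for the rest.

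Peaks were named by rule: the 8 largest rises and 8 largest falls among called desert peaks above the median signal of tested desert peaks, the 6 strongest, the strongest called peak of each of the 5 deserts with the most called peaks and of each flanking gene list, the 3 strongest over non-coding genes, and the 2 on each side of the 100 kb threshold. The members and lists were chosen with earlier results of these data known. Alternatives were other pseudocounts, filters, distances and scalings, no trend, the block and leaving out each sample. Peaks on sequence not placed in a chromosome (4) were left out. 1 of the named peaks is not reported here.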

Additional observations from a re-analysis of the deposited data

How the results depend on the processing

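The number of called desert peaks (439, with 294 higher and 145 lower) and the share of all tested peaks called (6.72%) depended on the samples and the model. With the replicate block they were 1280, 795, 485 and 18.3%. Leaving out each sample in turn gave 0 to 704 called, 0 to 561 higher, 0 to 213 lower and 0% to 9.43% of all peaks. No intensity trend gave 256, 176, 80 and 3.71%. Estimated reads with library totals gave 853, with 400 higher and 453 lower, 14.8% of all peaks and a desert median of -0.081. Median-of-ratios scaling, chosen after seeing the data, gave 889, 693 higher, 196 lower and 13.9%. Without quiescent sample 3, library totals on reads, also added then, called 364 (226 higher, 138 lower). A distance of 50 kb gave 828 of 9072 tested (522 higher, 306 lower), 200 kb gave 187 of 2128 (125 and 62), and letting every annotated gene bound a desert gave 46 of 536 (32 and 14). Other pseudocounts and filters and scaling to deposited totals gave 419 to 479.

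Of the 439 peaks, 373 were also called with library totals and 404 with median of ratios. Of the 25 named peaks that were called, all 25 were lost when quiescent sample 3 was left out, 18 when quiescent sample 2 was and 3 when quiescent sample 1 was. For proliferating samples 1, 2 and 3 the losses were 1, 11 and 9. These fits held fewer samples. No intensity trend lost 11, median of ratios 3, no filter 2, and library totals and deposited totals 1 each, and the block lost 0. None of these 25 changed direction with library totals or median of ratios. The causes of these shifts were not tested. The depth of proliferating sample 1 (8053178 reads) and the 3 samples per group limit what weak peaks can show. TMM scaling, edgeR and DESeq2 were not run, because the deposited unit is a scaled signal. Limma-voom was run on the estimated reads instead.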

Other observations

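Desert peaks also lay in genes of long non-coding RNAs. Of the 5809, 1444 overlapped one, and 105 of 1266 tested were called (8.29%), beside 326 of 3618 (9.01%) that overlapped no annotated gene. The gene with the most desert peaks was 2610307P16Rik beside Sox4, with 51 peaks, of which 1 was higher and 2 lower in quiescent cells, or 5 higher and 2 lower with the replicate block. Gm13481, Gm20755 and Gm31814 were not named by rule and are given because their called peaks went in 1 direction. They hold called peaks that are also counted above. Over all tested peaks 6.72% were called, or 18.3% with the replicate block. In Gm13481, in the desert between Zeb2 and Acvr2a, 2 of 15 tested peaks were higher and 0 lower, 10 and 0 with the block. All 15 log2 fold changes there were above 0 (0.25 to 2.24, median 1.073). In Gm20755, in the desert beside Ankrd50, 3 of 12 were lower and 0 higher, with a median of -0.674. In Gm31814, in the desert beside Bcl6, 3 of 13 were lower and 0 higher.

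In Pvt1, the non-coding neighbour of Myc, 0 of 10 tested desert peaks passed limma's test, and 1 passed with the block, as lower. Its strongest desert peak had 1484, 1150 and 967 in quiescent samples, against 1695, 1455 and 1450 in proliferating samples, and the groups overlapped (log2 fold change -0.37 ± 0.16, limma adjusted p = 0.203). In Lncpint, a target of p53, 0 of 21 passed, and 2 passed with the block. In Morrbid, a regulator of the lifespan of myeloid cells, 1 of 19 passed, as higher, and 3 with the block, 1 higher and 2 lower. The 3 strongest desert peaks over a non-coding gene lay beside Tgfbr2, Lpp and Map3k1, and their values are given above.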
